A study of Mus musculus with 8 samples.

Results

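Proteasome subunit genes were taken as all rows of the deposited table whose symbol begins with Psma to Psmg followed by a digit. This rule found 49 of 17143 genes. Psmc3ip, a recombination factor, matches the pattern but belongs to no proteasome, so it was counted apart and 48 members remained: 8 alpha ring genes, 7 constitutive beta ring genes, 3 immunoproteasome beta genes, 6 ATPases and 11 non-ATPase subunits of the 19S cap, 3 chaperones of 19S assembly, 5 activators, 1 inhibitor and 4 chaperones of 20S assembly. The cells came from the hippocampus of 8 wild-type (a/a) mice at 5 months of age and were profiled by droplet RNA sequencing on the 10x Chromium, in which each captured transcript carries a unique molecular identifier (UMI). The Pb group held 4 mice (2 females, 2 males) whose mothers were given lead acetate at 32 ppm in their water, starting before mating and ending at weaning, after which the young had lead-free water. The control group held 4 mice (2 females, 2 males) of mothers without that exposure. Both groups were perfused with saline, their tissue was dissociated with heat and enzymes, and their cells were frozen and thawed before loading. Litters gave 1 male and 1 female each and the labels tie no mouse to a litter, so mice that the tests treat as independent can share a dam.

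The 26S proteasome degrades proteins that carry ubiquitin chains. Its 20S core is a barrel of alpha and beta rings, and Psmb5, Psmb6 and Psmb7 encode the beta subunits that cut peptide bonds. The 19S cap recognises, unfolds and threads substrates, using a ring of ATPases (Psmc genes) and non-ATPase subunits (Psmd genes). Interferon can induce Psmb8, Psmb9 and Psmb10, which take the places of Psmb5, Psmb6 and Psmb7 in newly made cores and form the immunoproteasome, and also Psme1 and Psme2, which encode the PA28 cap. Immunoproteasomes are known for making peptides that are presented on MHC class I molecules, and in brain they are known mostly from microglia and vessels.

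After filtering, 5175 cells were kept, 3555 from Pb and 1620 from control mice. A Pb mouse gave 471 to 1157 cells and 3180582 to 8508064 UMIs. A control mouse gave 211 to 567 cells and 1749079 to 4306735 UMIs. Counts were summed per mouse within cell classes that were rebuilt by clustering without the members and named from marker genes ("-like"), so that no class was built on a member's level. Levels are given as CPM, the UMIs of a gene scaled to 1000000 UMIs of that class in that mouse. A UMI stands for a molecule and not for a stretch of transcript, so CPM values were not divided by length. Of 22 clusters, cluster 0 (751 cells, led by hemoglobin genes, with endothelial markers) and cluster 6 (196 cells, with 11 of 11 microglial markers detected but led by genes of other types, at 0.586 of the depth of other cells) stayed unnamed and are given by number. The Neuron-like class held 110 cells led by Reln and Lhx1, and 66 of the 1276 Oligodendrocyte-like cells formed a cluster found in control male 2 alone. That mouse had 10 and 16 cells in the other Oligodendrocyte-like clusters. The 11 microglial markers summed to a median of 37976 CPM in Microglia-like cells to 4481 CPM in Oligodendrocyte precursor-like cells and to 1776 to 2450 CPM in the Smooth muscle-like, Oligodendrocyte-like, Pericyte-like, cluster 0, Endothelial-like, Neuron-like, Choroid plexus-like and Astrocyte-like sums, so each class also held some transcripts of other classes. Of 5199 barcodes, 32 occurred in more than 1 mouse.

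Immunoproteasome genes differed widely between the cell classes. The share of the inducible subunits among the catalytic transcripts (Psmb8, Psmb9 and Psmb10 over these plus Psmb5, Psmb6 and Psmb7) was 48.3% ± 2.02 (SD, n = 8 mice) in Microglia-like cells, with a lowest value of 46.3%, a median of 47.5% and a highest of 51.7%. It was 8.47% ± 2.67 (n = 8) in Oligodendrocyte-like cells, between 5.79% and 12.9%. Every mouse thus had a higher share in the Microglia-like class than in the Oligodendrocyte-like class. Vascular cells lay between: 42.2% ± 2.65 in cluster 0, 40.8% ± 2.47 in Endothelial-like cells, 39.6% ± 4.98 in Smooth muscle-like cells (n = 6) and 32.0% ± 4.54 in Pericyte-like cells. Cluster 6 had a share of 43.2% ± 5.42. The shares of cluster 6, cluster 0, Endothelial-like and Smooth muscle-like cells differed from each other by less than their SD. Lower means were found in the other named classes that were measured: 20.3% ± 3.89 in Astrocyte-like cells (n = 6), 17.6% ± 5.20 in Choroid plexus-like cells (n = 3), 15.5% ± 6.21 in Oligodendrocyte precursor-like cells (n = 5) and 8.52% ± 4.74 in Neuron-like cells (n = 6). In the 3 microglial clusters the mean shares were 47.6% ± 2.68 (n = 8), 48.2% ± 3.69 (n = 8) and 50.1% ± 4.64 (n = 7), and their differences were not tested.

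**Figure D1:**
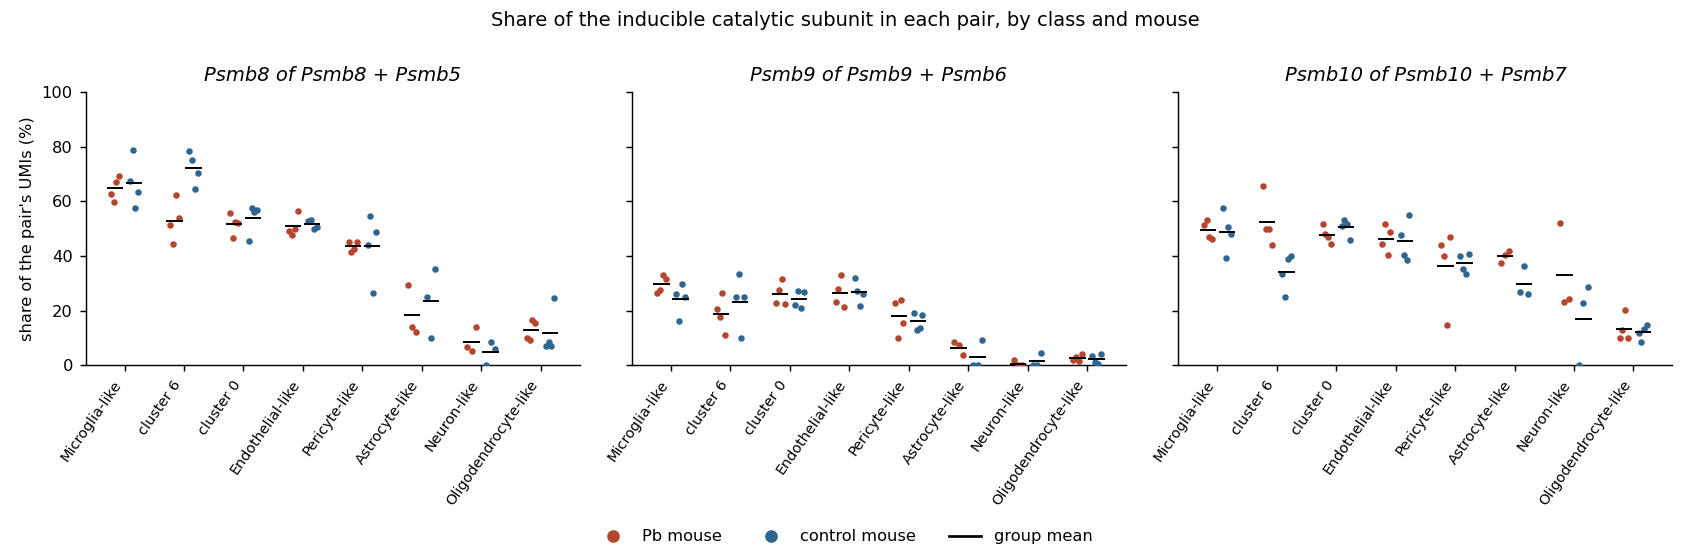
Share of each inducible catalytic subunit (Psmb8, Psmb9, Psmb10) in the UMIs of its pair with the constitutive subunit it replaces (vertical axis, percent) by cell class or cluster (horizontal axis); each point is 1 mouse, Pb in red and control in blue, and bars are group means. Microglia-like values of Psmb8 lie between 57.7% and 78.8% and those of Oligodendrocyte-like cells between 6.98% and 24.7%, and Pb and control points overlap in most classes.

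The promoters of these genes were read for short motifs that are background to their known control. Of the 48 members, 40 were matched by symbol in RefSeq's promoter table (GRCm38.p6), in 43 promoters. Within the 250 bases before the start, on both strands, the antioxidant response element core TGACNNNGC occurred in 5 of 43 member promoters (11.6%, against 10.2% of all 32851 promoters), in Psmb5, Psmb6, Psmc6, Psmd12 and Psmd9. The STAT site core TTCNNNGAA occurred in 2 of them (4.65%, against 7.02% of all), in Psmb8 and Psmg1. The following stretches of 30 bases show these matches in the catalytic subunits Psmb5, Psmb6 and Psmb8 and in the 19S chaperone gene Psmd9, which stood apart between the classes. RefSeq's start is not always the start of the gene model in the annotation: for Psmb5, Psmb8 and Psmd9 it lies inside the annotated span. The stretches of Psmb8 and Psmd9 lie within the annotated genes, and that of Psmb5 lies directly before its annotated gene. Capitals mark the match, and each stretch is given 5′ to 3′ on the gene's own strand.
Psmb5, chr14:54618023-54618052, minus strand: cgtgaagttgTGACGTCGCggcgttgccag
Psmb6, chr11:70525327-70525356, plus strand: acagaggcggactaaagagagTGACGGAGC
Psmd9, chr5:123228149-123228178, plus strand: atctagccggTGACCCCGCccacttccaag
Psmb8, chr17:34198088-34198117, plus strand: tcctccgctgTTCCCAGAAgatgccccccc

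These matches describe letters in a window and are not sites of binding. The core of the interferon-stimulated response element, GAAANNGAA, occurred in 3 member promoters (6.98%, against 7.13% of all) and was not among the letters of this window in Psmb8, Psmb9, Psmb10, Psme1 or Psme2. The heat shock element GAANNTTC stood in 6.98% of member promoters and 6.69% of all, and the CCAAT box in 30.2% and 33.9%. The GC box GGGCGG stood in 53.5% of member promoters, 23 of 43, against 32.7% of all.

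Psmb8, which encodes the inducible chymotrypsin-like subunit, had its highest mean in Microglia-like cells: 148.3 CPM in the lowest mouse, a median of 167.2 and 191.4 in the highest (mean 167.9 ± 14.0 SD, n = 8). Cluster 6 (166.3 ± 40.4 CPM), cluster 0 (166.0 ± 26.1) and Endothelial-like cells (148.1 ± 13.1) overlapped with it mouse by mouse. In Pericyte-like cells Psmb8 was at 106.5 ± 19.6 CPM, and its highest mouse (125.3 CPM) lay below the lowest Endothelial-like value (129.4 CPM). Oligodendrocyte-like cells had 12.5 CPM in the lowest mouse, a median of 19.7 and 50.4 in the highest, on 5 to 52 UMIs per mouse. Astrocyte-like (28.7 ± 15.3 CPM) and Oligodendrocyte-like (24.8 ± 13.4 CPM) cells differed by less than their SD. Neuron-like cells had 14.8 ± 11.8 CPM.

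Psmb9, the inducible counterpart of Psmb6, followed another order. Its means were 82.4 ± 17.6 CPM in Endothelial-like cells, 77.9 ± 14.1 in cluster 0, 58.2 ± 12.9 in Microglia-like cells and 45.4 ± 14.2 in Pericyte-like cells. In Oligodendrocyte-like cells it was at 7.82 ± 4.65 CPM on 1 to 21 UMIs per mouse. In Neuron-like cells 4 of 6 mice had no Psmb9 UMI, which allows levels of up to 21.5 to 45.8 CPM in those mice (3 counts). Psmb10, the inducible counterpart of Psmb7, stood at 141.6 ± 11.3 CPM in cluster 0, 122.1 ± 32.1 in Endothelial-like cells, 102.7 ± 12.1 in Microglia-like cells, 88.7 ± 29.4 in Pericyte-like cells, 72.8 ± 17.5 in Astrocyte-like cells and 30.9 ± 8.19 in Oligodendrocyte-like cells. Of the 3 inducible genes, Psmb10 had the highest mean in Astrocyte-like, Neuron-like and Oligodendrocyte-like cells, in the last with overlapping spread beside Psmb8 (24.8 ± 13.4 CPM).

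The PA28 genes resembled the inducible beta genes in Microglia-like and vascular cells. Psme1 had 203.8 ± 14.1 CPM in cluster 0, 171.8 ± 17.6 in Endothelial-like cells, 163.0 ± 22.8 in Microglia-like cells, 144.0 ± 30.4 in Pericyte-like cells and 38.4 ± 5.82 in Oligodendrocyte-like cells. Psme2 spread less between classes, from 152.0 ± 25.3 CPM in cluster 0 to a mean of 108.8 in Microglia-like cells (91.9 to 126.8), 61.7 ± 15.5 in Oligodendrocyte-like cells and 54.8 ± 32.3 in Astrocyte-like cells. Unlike Psme1, Psme2 was at a similar level in Neuron-like (104.5 ± 50.8 CPM) and Microglia-like cells.

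Between Microglia-like and Oligodendrocyte-like cells, the constitutive catalytic genes differed in the opposite direction. Psmb5 had 88.7 ± 22.9 CPM in Microglia-like cells, from 45.9 to 116.9, and 173.0 ± 12.6 CPM in Oligodendrocyte-like cells, from 153.5 to 187.9, with no overlap. Psmb6 stood at 156.6 ± 14.4 and 295.9 ± 35.3 CPM in the same classes, and Psmb7 had 106.3 ± 13.9 and 214.6 ± 21.7 CPM. Neuron-like cells had 192.2 ± 48.2 CPM of Psmb5 and 310.1 ± 52.6 of Psmb6. Together, Psmb5, Psmb6 and Psmb7 came to 351.6 ± 28.3 CPM in Microglia-like cells, 508.8 ± 33.0 in Endothelial-like cells and 683.6 ± 51.0 in Oligodendrocyte-like cells, while Psmb8, Psmb9 and Psmb10 came to 328.7 ± 27.9, 352.6 ± 44.1 and 63.5 ± 20.9 CPM. The opposite order did not hold for every pair of classes: Endothelial-like cells had more of both sets than Microglia-like cells, and Choroid plexus-like cells had little of both (73.4 ± 18.8 CPM inducible, 347.1 ± 54.8 CPM constitutive, n = 3).

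**Figure D2:**
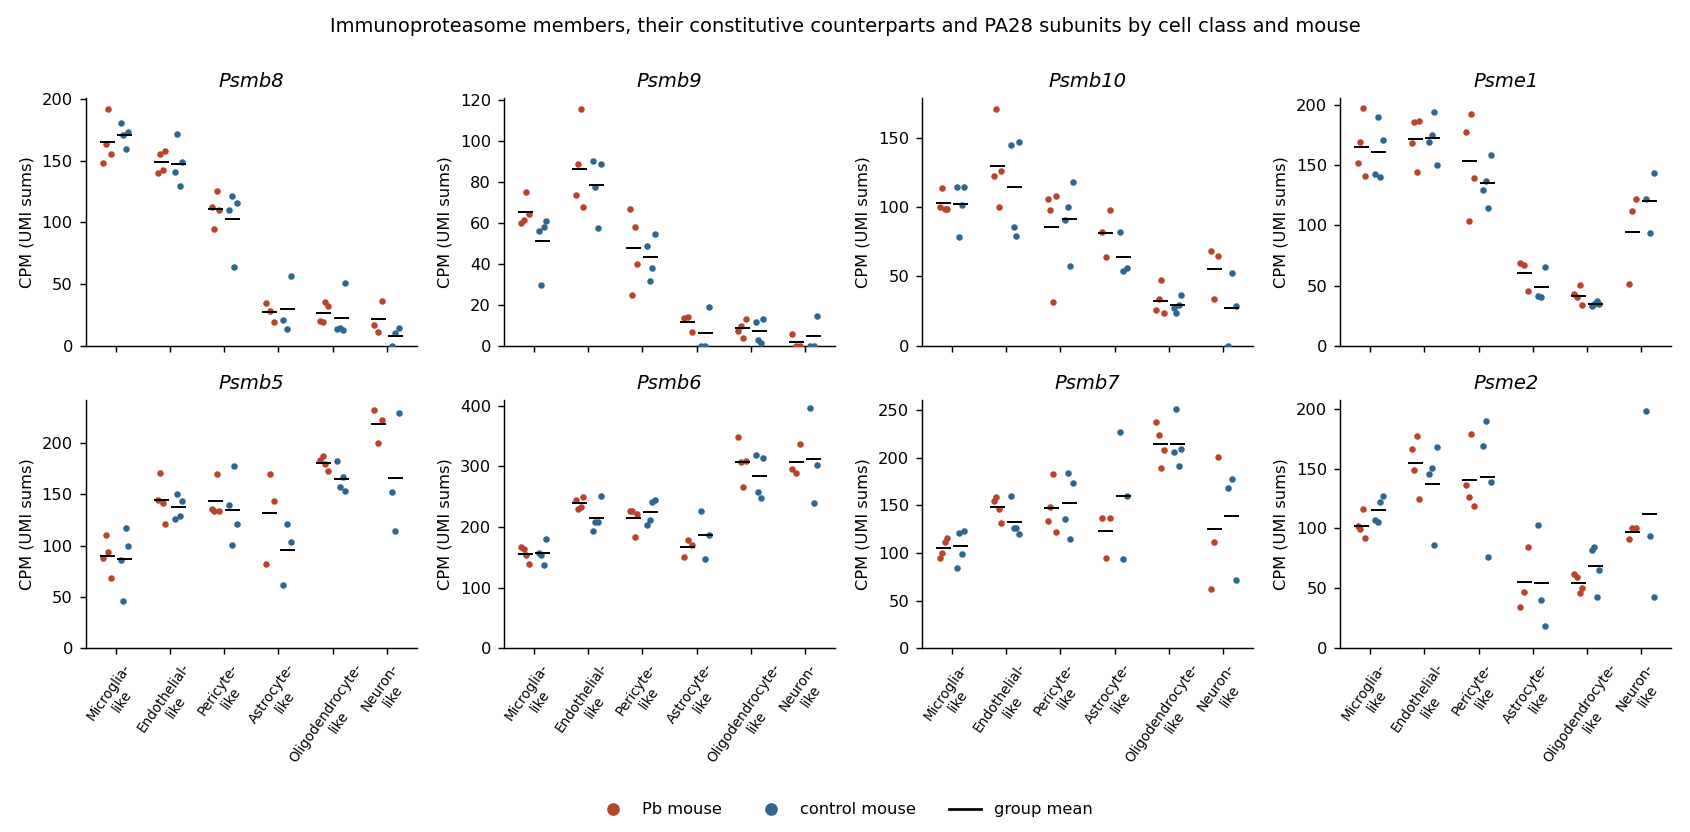
Levels in CPM (vertical axes, linear, starting at 0) of the inducible genes Psmb8, Psmb9 and Psmb10, their constitutive counterparts Psmb5, Psmb6 and Psmb7, and the PA28 genes Psme1 and Psme2 in 6 cell classes; each point is 1 mouse, Pb in red and control in blue, and bars are group means. Psmb8 has 167.9 CPM on average in Microglia-like cells and 24.8 CPM in Oligodendrocyte-like cells, and Psmb5 has 88.7 and 173.0 CPM there.

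Over all 48 members the mean sum was lowest in Choroid plexus-like cells (3393 ± 427 CPM, n = 3) and highest in Oligodendrocyte precursor-like cells (6268 ± 563 CPM, n = 5), among the 11 classes and clusters measured. It was 3757 ± 233 CPM in Microglia-like cells, 3445 ± 246 in Astrocyte-like cells (n = 6), 4868 ± 266 in Pericyte-like cells, 5193 ± 329 in Oligodendrocyte-like cells, 5363 ± 287 in Endothelial-like cells and 5491 ± 552 in Neuron-like cells (n = 6). The Microglia-like and Astrocyte-like sums lay below those of Pericyte-like, Oligodendrocyte-like, Endothelial-like and Neuron-like cells in every mouse, from 3153 to 4116 CPM against 4297 to 6102 CPM. Among the 8 classes and clusters tested for the exposure, Neuron-like cells had the highest mean of 18 members, Oligodendrocyte-like cells of 11, cluster 0 of 9, Endothelial-like cells of 5, Astrocyte-like cells of 3, and Microglia-like and Pericyte-like cells of 1 each, Psmb8 and Psmd5. The ratio of the highest to the lowest of these class means was 5.31 for Psme1, 4.59 for Psmb10 and 1.72 to 2.17 for the 7 constitutive beta genes. Members outside these sets varied too, such as Psmd9 (3.07). Psme2b, Psmd10 and Psme4 had ratios of 10.0, 5.60 and 4.47, with 0 to 2, 0 to 5 and 0 to 4 UMIs per mouse in their lowest class. No ratio is given for Psmb8 and Psmb9, whose lowest class, Neuron-like, had 0 to 5 and 0 to 1 UMIs per mouse.

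Microglia-like and Oligodendrocyte-like cells of the same 8 mice were compared with edgeR's quasi-likelihood test, with the mouse as a block. Of 47 members tested, 9 were higher and 32 lower in Microglia-like cells at an adjusted p under 0.05. These are 19.1% and 68.1% of the members, beside 36.5% and 38.7% of all 9817 genes tested. The members' median log2 difference was -0.59, beside -0.02 for all genes. The 3 immunoproteasome genes, 3 of 5 activators, 2 alpha ring genes and 1 non-ATPase gene were higher. All 7 constitutive beta genes, 5 of 7 alpha ring genes, 5 of 6 ATPases, 10 of 11 non-ATPases, 2 of 3 19S chaperones, 2 of 4 20S assembly chaperones and the inhibitor Psmf1 were lower.

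The 5 members with the largest rise in Microglia-like cells were Psmb9 (log2 difference 2.95 ± 0.17 SE, adjusted p = 2.0e-21), Psmb8 (2.83 ± 0.13, adjusted p = 1.2e-26), Psme1 (2.18 ± 0.10, adjusted p = 9.1e-27), Psmb10 (1.91 ± 0.11, adjusted p = 1.0e-21) and Psme2b (1.43 ± 0.15, adjusted p = 3.2e-12). Psme2b is a near copy of Psme2, so reads can be split between them and its value is uncertain. Psme2 itself was higher by 0.99 ± 0.10 (adjusted p = 1.6e-12). Psmb8 and Psmb9 lie close together on chromosome 17 (34197721 to 34201454 and 34181987 to 34187764, GRCm38), beside the transporter genes of MHC class I loading, and Psme1 and Psme2 neighbour each other on chromosome 14. The alpha ring genes Psma1 (0.57 ± 0.10) and Psma3 (0.30 ± 0.08) and the 19S lid gene Psmd8 (0.19 ± 0.08, adjusted p = 0.039) were higher by smaller amounts. When counts were scaled by library size in place of the trimmed mean method (TMM), an alternative chosen after the data were seen, the median of all genes moved from -0.02 to -0.16 and 7 members were higher and 33 lower.

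The 5 with the largest fall were Psmd9, Psmd1, Psmc1, Psmc3 and Psmb7. Psmd9, a chaperone that helps to assemble the ATPase ring, had 20.6 CPM in the lowest mouse, a median of 26.9 and 48.3 in the highest in Microglia-like cells, and 58.2, 77.0 and 92.1 CPM in Oligodendrocyte-like cells. The groups did not overlap, and the log2 difference was -1.24 ± 0.12 (adjusted p = 2.3e-13). Psmd1, a large scaffold subunit of the 19S base, went from 78.4 to 115.8 CPM in Oligodendrocyte-like and from 16.4 to 50.9 in Microglia-like cells (-1.15 ± 0.11, adjusted p = 2.3e-13). The ATPase genes Psmc1 and Psmc3 differed by -0.99 ± 0.10 and -0.89 ± 0.08, and Psmb7 by -0.88 ± 0.09. Psmb5 and Psmb6 were lower by similar amounts (-0.80 ± 0.09 and -0.79 ± 0.08). Members that did not pass were Psmc6, Psmg2, Psmg4, Psmd5, Psme3 and Psme4, at -0.19, -0.19, -0.09, 0.00, 0.24 and 0.30. Beside these values, the 12 oligodendrocyte markers summed to a median of 2946 CPM in Microglia-like and to 59717 CPM in the Oligodendrocyte-like class, and none was at 0 in either. The part of such shared transcripts in the class levels was not tested.

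Microglia-like and Pericyte-like cells, both rich in inducible subunits, differed at fewer members. Of 48 tested, 6 were higher and 8 lower in Microglia-like cells, which are 12.5% and 16.7% of the members, beside 31.4% and 33.4% of all 8933 genes. Psmb8 was higher by 1.01 ± 0.11 (adjusted p = 2.1e-12), Psmb9 by 0.78 ± 0.16 (adjusted p = 2.1e-05), Psme1 by 0.55 ± 0.10 (adjusted p = 8.2e-06), Psmb10 by 0.53 ± 0.13 (adjusted p = 0.00023) and the ATPase gene Psmc2 by 0.45 ± 0.13 (adjusted p = 0.0019). The sixth was Psmd8, at 0.30 ± 0.10. The calls of Psme1, Psmb10, Psmc2 and Psmd8 rest on the scaling. By library size Psme1, Psmb10 and Psmc2 differed by 0.15, 0.15 and 0.06, and the median of all genes moved from -0.04 to -0.43. With that scaling 2 members, Psmb8 (0.62) and Psmb9 (0.39), were higher and 27 lower. The largest falls were those of Psmf1, the PI31 inhibitor (-0.75 ± 0.23, adjusted p = 0.0035), Psma7 (-0.66 ± 0.09, adjusted p = 6.2e-09), Psmd1 (-0.54 ± 0.15), the 19S chaperone Psmd5 (-0.50 ± 0.20, adjusted p = 0.027) and the lid gene Psmd7 (-0.41 ± 0.11). Psma7 had 110.1 to 175.4 CPM in Microglia-like and 258.4 to 349.9 CPM in Pericyte-like cells, with no overlap. With coarser clusters (Leiden resolution 0.5) the Pericyte-like name fell to 114 cells in place of 316. They were led by Vtn and Kcnj8, like the smaller of the 2 Pericyte-like clusters used here (116 cells). That smaller cluster reached 10 cells in 4 mice, so this comparison can rest on fewer than 8 mice. Against the 114 cells, 5 members were higher and 0 lower. Psmb8 and Psmb9 differed by 2.02 and 3.27. Psma7, Psmd1, Psmd5, Psmd7 and Psmf1, no longer past the threshold, differed by -0.21, -0.01, -0.50, -0.37 and -0.67. Psmc2, also no longer past it, differed by 0.13. With TMM, all 8 mice and the clusters used here, none of the 7 constitutive beta genes passed. Psmb5, Psmb6 and Psmb7 stood at -0.24, -0.11 and -0.08. Psmb5 did pass without Pb male 1 (-0.31) and without control female 2 (-0.29). By library size Psmb5, Psmb6, Psmb7, Psmb1 and Psmb3 passed, at -0.63, -0.50, -0.47, -0.35 and -0.61. Pericyte-like cells also held 12 of 12 endothelial markers, summing to a median of 15011 CPM against 23863 CPM in Endothelial-like cells, and of their 2 clusters the smaller had an inducible share of 21.7% ± 3.02 (n = 4) and the larger 34.0% ± 4.25 (n = 8). The part of endothelial transcripts in the Pericyte-like levels was not tested.

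**Figure D3:**
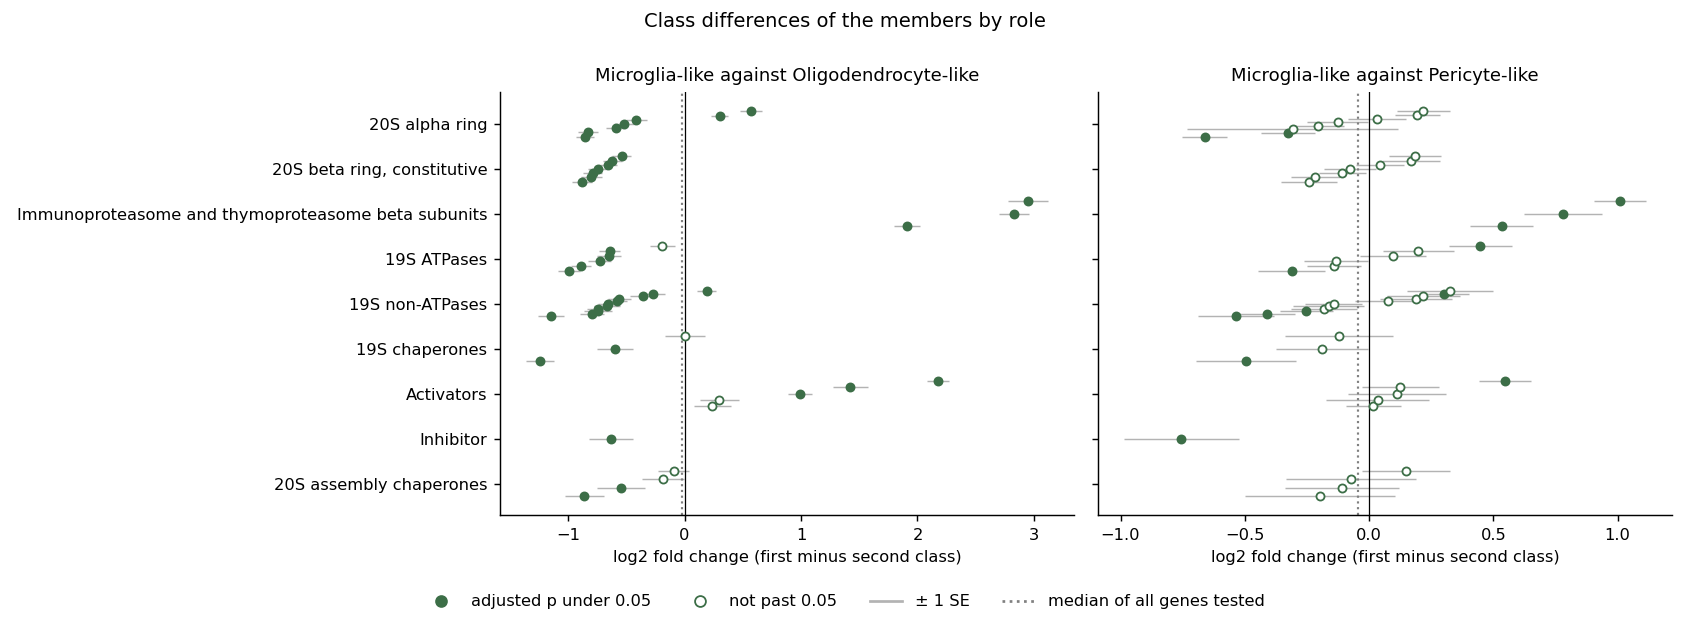
Log2 differences of the members (horizontal axes) by their role in the proteasome (vertical axis), Microglia-like minus Oligodendrocyte-like at left and Microglia-like minus Pericyte-like at right; each circle is 1 gene with its standard error, filled where the adjusted p is under 0.05, and the dotted line is the median of all genes tested. At left the 7 constitutive beta genes lie from -0.88 to -0.54 and the 3 inducible genes from 1.91 to 2.95.

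Genes that work beside the proteasome were followed in the same comparisons. Of 28 other proteasome and ubiquitin pathway genes, 12 (42.9%) were higher and 8 (28.6%) lower in Microglia-like than in Oligodendrocyte-like cells, with a median of 0.05, beside 36.5% and 38.7% of all genes. Nfe2l1, a transcription factor known to drive proteasome genes when proteasome activity is low, was higher by 0.81 ± 0.13 (adjusted p = 3.5e-07), as was Pomp, the maturation factor of the 20S core (0.24 ± 0.07). Against Pericyte-like cells both had the opposite sign: Nfe2l1 was at -1.07 ± 0.13 (edgeR adjusted p = 2.7e-10) and Pomp at -0.19 ± 0.09 (edgeR adjusted p = 0.043). The ubiquitin-activating enzyme gene Uba1 (-0.78 ± 0.10) and the shuttle gene Ubqln1 (-0.68 ± 0.10) were lower in Microglia-like than in Oligodendrocyte-like cells. Against Pericyte-like cells they stood at -0.05 and 0.21, neither past the threshold. Of 16 antigen processing and interferon response genes tested, 14 were higher in Microglia-like than in Oligodendrocyte-like cells and 0 lower. The median of the 16 was 2.39. Tap1 (2.85 ± 0.21) and Tap2 (2.96 ± 0.15), which carry proteasome products to MHC class I, were among the 14. Against Pericyte-like cells 7 of 15 of these genes (46.7%) were higher and 6 (40.0%) lower, beside 31.4% and 33.4% of all genes.

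The 5 genes whose levels were most like those of Psmb8, by Spearman's rho over 60 mouse and class profiles and 9701 genes, were H2-K1 (0.866), B2m (0.860), Clic1 (0.852), Slco2b1 (0.848) and Nfkbia (0.840). The profiles share mice and libraries, so these values are a description with no test. H2-K1 and B2m encode the heavy and light chains of an MHC class I molecule.

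The comparison of Pb with control mice asked whether exposure around birth left a difference in these genes at 5 months. With edgeR's quasi-likelihood test and sex as a covariate, 0 members had an adjusted p under 0.05 across 9 units (the sum over all cells, 6 classes and 2 clusters). The smallest adjusted p of a member was 0.596. All genes behaved much the same: 0% were called in all cells and in 7 of the 8 classes and clusters, and 0.0358% (1 of 2790) in Astrocyte-like cells. Over the 8 classes and clusters, 303 member tests gave 3 higher and 2 lower values at an unadjusted p under 0.05, against 2.03% higher and 2.4% lower over all genes. DESeq2 gave 0 member tests at an unadjusted p under 0.05, and limma-voom gave 9, all units included. In the 6 classes and clusters with 4 mice a group, all Pb mice lay above all control mice in 6 of 250 member tests and below in 0, against 1.5% and 1.32% of all gene tests.

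In the sum over all cells, 34 of 48 members had a log2 difference above 0, with a median of 0.06, beside 45.8% of all 12989 genes and a median of -0.02. The members summed to 4714 to 5005 CPM in Pb and 3962 to 5117 CPM in control mice, and the groups overlapped. The smallest unadjusted p belonged to Psmg2, a chaperone of alpha ring assembly, with 25.5, 27.4, 27.1 and 22.3 CPM in Pb females 1 and 2 and males 1 and 2, and 19.4, 21.1, 19.7 and 21.6 CPM in control females 1 and 2 and males 1 and 2. All 4 Pb mice lay above all control mice by a small margin, and the log2 difference was 0.29 ± 0.14 (edgeR adjusted p = 0.981). Psmb5 was also higher in every Pb mouse, at 150.1, 149.3, 166.6 and 139.2 CPM against 114.9, 135.8, 134.7 and 131.5 CPM (0.20 ± 0.11, edgeR adjusted p = 0.981). In this sum 2 of 48 members lay above in all Pb mice and 0 below, beside 308 and 140 of all 12989 genes. Psme2b stood at -0.47 ± 0.23, Psmc2 at 0.23 ± 0.14 and Psmg3 at 0.20 ± 0.13, each with overlapping groups. Heat shock genes moved with the group here: 21 of 22 had a difference above 0, with a median of 0.28 and 0 past the threshold. The median mitochondrial share of UMIs per cell was 2.93% to 3.44% in Pb and 3.31% to 4.45% in control mice. Markers of other cell types moved too: the 12 oligodendrocyte markers summed to 16471 to 20731 CPM in Pb and 11735 to 15365 CPM in control mice, with no overlap and none at 0, and Psmb5 had a higher level in Oligodendrocyte-like than in Microglia-like cells. The 10 choroid plexus markers ranged from 366.0 to 17200 CPM in Pb and from 308.2 to 55781 CPM in control mice. These sums alone do not separate fewer cells of a type from less RNA per cell. In Pb females 1 and 2 and males 1 and 2, 1157, 471, 1084 and 843 cells were kept. The largest Oligodendrocyte-like cluster held 187, 70, 129 and 123 of them, and the next 162, 34, 126 and 119. In control mice in that order, 211, 567, 368 and 474 were kept. These clusters held 25, 62, 39 and 10, and 15, 56, 37 and 16 of them. The cluster found in control male 2 alone held 66 more. The part of cell composition, heat shock or RNA quality in the members' values was not tested.

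**Figure D4:**
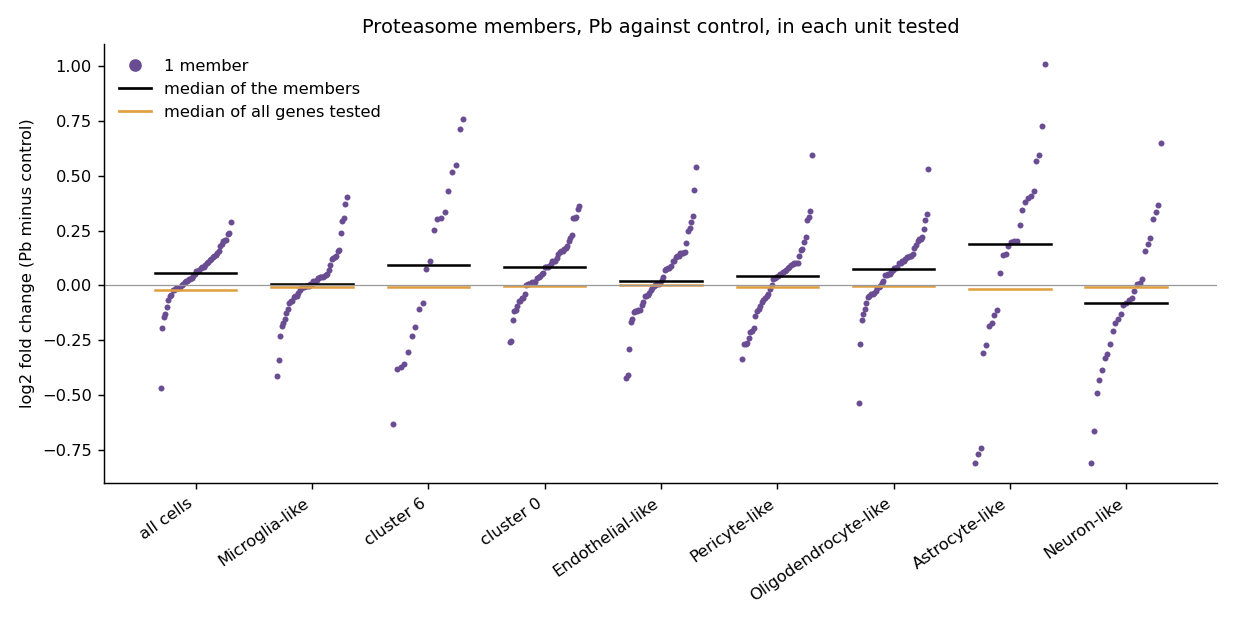
Log2 differences between Pb and control mice (vertical axis) for each proteasome member tested in all cells and in each class or cluster (horizontal axis); points are genes sorted by value, black bars the median of the members and orange bars the median of all genes tested. The members' median is 0.06 in all cells, 0.00 in Microglia-like and -0.08 in Neuron-like cells, and no point passes an adjusted p of 0.05.

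In Microglia-like cells the members were spread evenly around 0: 25 of 47 were above it, with a median of 0.00, and the sum was 3679 to 3807 CPM in Pb and 3326 to 4116 CPM in control mice. The immunoproteasome share was 48.6% ± 1.70 in Pb and 48.0% ± 2.52 in control mice (n = 4 each). The smallest p belonged to Psme2b (-0.42 ± 0.20, edgeR adjusted p = 1), Psmd8 (0.24 ± 0.14) and Psmd1 (0.37 ± 0.23). Heat shock genes had a median of 0.65 in these same cells, with 21 of 21 above 0 and 0 past the threshold.

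Oligodendrocyte-like cells had 31 of 46 members above 0 (67.4%, beside 49.1% of all genes), with a median of 0.07. In control male 2 this class held 66 cells of the cluster found in that mouse alone, beside 10 and 16 of the shared clusters. Psmf1, which encodes the PI31 inhibitor, had 27.6, 27.8, 25.2 and 27.0 CPM in Pb females 1 and 2 and males 1 and 2, and 20.5, 17.2, 19.6 and 18.1 CPM in control mice. The groups did not overlap, on 7 to 70 UMIs per mouse, and the difference was 0.53 ± 0.22 (edgeR adjusted p = 1.00). Psmd8 stood at 0.26 ± 0.13 and the ATPase gene Psmc4 at 0.33 ± 0.18, with overlap.

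In the vascular classes the values were small. Cluster 0 had 36 of 47 members above 0 (76.6%, beside 49.8% of all genes) and a median of 0.08, with no overlap only for Psma6, an alpha ring gene: 233.9, 227.7, 234.4 and 224.6 CPM in Pb and 181.6, 191.6, 203.3 and 164.2 CPM in control mice (0.31 ± 0.13, edgeR adjusted p = 1.00). The alpha ring gene Psma5 stood at 0.31 ± 0.16 and the ATPase gene Psmc5 at 0.31 ± 0.17. Endothelial-like cells had 27 of 46 above 0 and a median of 0.02, with the smallest p for Psme4, which encodes the PA200 activator (0.54 ± 0.26), Psme2b (-0.42 ± 0.22) and Psmc2 (0.32 ± 0.19). Pericyte-like cells had 26 of 44 above 0 and a median of 0.04, led by the ubiquitin receptor gene Psmd4 (-0.34 ± 0.17), Psmc2 (0.34 ± 0.21) and Psmc4 (0.31 ± 0.21).

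Cluster 6 had fewer UMIs (47098 to 163436 per mouse) and 20 members tested, 11 of them above 0. Psmb5 had 107.6, 107.4, 153.0 and 144.4 CPM in Pb and 45.6, 83.2, 63.7 and 97.3 CPM in control mice, on 3 to 25 UMIs per mouse, with no overlap (0.76 ± 0.33, edgeR adjusted p = 0.596). Psmb3 had 127.8, 88.4, 153.0 and 200.5 CPM in Pb and 182.5, 249.6, 212.3 and 194.5 CPM in control mice, with overlap (-0.63 ± 0.28, edgeR adjusted p = 0.612). Psmb10 stood at 0.71 ± 0.34. The share of Psmb8 in its pair with Psmb5, which uses the same Psmb5 counts, was 53.0% ± 7.33 in Pb and 72.2% ± 5.98 in control mice. The highest Pb mouse (62.2%) lay below the lowest control mouse (64.7%). The share of Psmb10 in its pair with Psmb7 went the other way (52.5% ± 9.20 and 34.3% ± 6.86). Psmb8, Psmb10 and Psmb7 had 9 to 28, 3 to 22 and 6 to 24 UMIs per mouse. The share of all inducible subunits together overlapped, at 35.1% to 47.7% in Pb and 41.9% to 51.6% in control mice. None of these shares was tested.

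Astrocyte-like and Neuron-like cells could be compared over 3 mice a group, since Pb female 2 and control male 1 had too few Astrocyte-like cells, and Pb male 1 and control female 1 too few Neuron-like cells. In Astrocyte-like cells 17 of 26 members were above 0, with a median of 0.19, and the members summed to 3578 to 3705 CPM in Pb and 3153 to 3387 CPM in control mice, with no overlap and no test. Markers of other cell types separated the same mice: oligodendrocyte markers summed to 3247 to 4035 CPM in Pb and 2083 to 3002 CPM in control mice, pericyte markers to 267.6 to 607.2 and 178.2 to 226.7 CPM, and ependymal markers to 80.6 to 109.8 and 122.0 to 267.9 CPM. Choroid plexus markers overlapped and reached 17796 CPM in a control mouse. Their part in the members' sums was not tested. Psmc1 stood at 1.01 ± 0.50, Psmd11 at -0.81 ± 0.41 and Psmc3 at 0.73 ± 0.42. In Neuron-like cells 10 of 27 were above 0, with a median of -0.08, which ranged from -0.12 to 0.08 over the alternatives. There Psma2, an alpha ring gene, had 176.0, 145.0 and 215.2 CPM in Pb females 1 and 2 and male 2, and 445.7, 244.1 and 229.5 CPM in control female 2 and males 1 and 2. The log2 difference of Psma2 was -0.81 ± 0.32 (edgeR adjusted p = 0.999). Psma4 stood at -0.67 ± 0.42 and Psmc1 at -0.49 ± 0.37, the latter at 0.04 without control female 2. Psmc1 thus had values of opposite sign in Astrocyte-like and Neuron-like cells, and that difference was not tested.

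Of the other 28 proteasome and ubiquitin pathway genes, 0 had an adjusted p under 0.05 for Pb against control across these units, and 17 of 28 were above 0 in all cells, with a median of 0.06. The 17 antigen processing and interferon response genes had 7 above 0 in all cells and 0 past the threshold.

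Sex was tested in the same 9 units, and the dependence of the exposure difference on sex in 7 of them, without Astrocyte-like and Neuron-like cells. No member passed an adjusted p of 0.05 for male against female, where 0.0833% of all gene tests did, or for the product of exposure and sex, where 0.00373% did. At an unadjusted p under 0.05 there were 8 of 351 and 4 of 307 member tests, beside 3.97% and 3.41% of all gene tests. For sex the smallest p belonged to Psme2b in cluster 0, lower in males by 0.63 ± 0.19 on the log2 scale (edgeR adjusted p = 0.516). Psmb7 in Neuron-like cells was next, higher in males by 1.24 ± 0.40 (edgeR adjusted p = 0.998). For the product term the smallest p was that of Psmg2 in Microglia-like cells. Its level was 19.5 and 20.7 CPM in Pb females and 6.56 and 9.75 CPM in control females, but 17.5 and 16.6 CPM in Pb males and 33.1 and 27.5 CPM in control males. The Pb females lay above and the Pb males below their controls, on 2 to 34 UMIs per mouse, and the product term was -1.98 ± 0.59 (edgeR adjusted p = 0.999). Psmc4 in Endothelial-like cells followed, at 0.82 ± 0.37 (edgeR adjusted p = 1.00).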

How the data were processed

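UMI counts per gene and cell were used as deposited by the authors; the submitters' processing notes name Cell Ranger, Seurat and the build mm10. Cells with at least 200 genes and at most 20% mitochondrial UMIs were kept, and 30 cells called doublets by Scrublet were removed. Of 5258 deposited cells, 53 exceeded the mitochondrial limit. The 33 doublets called are 0.628%. Cells were clustered in scanpy 1.11.5 (2000 variable genes without the members, 30 components, Leiden resolution 1) and named from marker lists. Cluster 15 was left unnamed by hand after its genes were seen.

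Counts were summed per mouse and class where a mouse had at least 10 cells, and tested with edgeR 4.0.16 (TMM, filterByExpr, quasi-likelihood, sex and exposure as terms) and Benjamini-Hochberg adjustment over all genes. Class comparisons had the mouse as a block. DESeq2 1.42.0 and limma-voom 3.58.1 were alternatives, and the steps were tested on simulated data. The members and lists were chosen with earlier results of these data known. Named genes were, per comparison, the members with the smallest p (exposure, 3 per class or cluster and 5 in all cells; sex and product term, 2 each) or the 5 largest rises and falls past the threshold, with Psmb5 to Psmb10, Psme1 and Psme2 in class comparisons. Other genes named were picked from the lists after their values were seen. A level's precision is set by the UMIs behind it, and floors cover counting error only.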

Additional observations from a re-analysis of the deposited data

Results flagged for a closer look

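In groups of 4 mice, 88 sets of values were searched for 1 mouse standing far from the other 3, and 6 were found; such a search flags some groups by chance. In Microglia-like cells, Psme2b was at 57.43 CPM in Pb female 2 and at 39.6 to 41.1 CPM in the other Pb mice. Psmd1 was at 16.4 CPM in control female 1, on 5 UMIs, and at 34.7 to 35.8 CPM in the other control mice. In cluster 6, Psmb10 was at 113.5 CPM in control male 2 and at 60.8 to 66.6 CPM in the other control mice. The share of Psmb9 in its pair with Psmb6 over all cells was 12.8% in control male 2 and 18.1% to 18.2% in the other control mice. The share of Psmb8 in its pair with Psmb5 was 45.38% in control male 1 in cluster 0, beside 56.2% to 57.7%. The same share was 24.74% in control female 2 in Oligodendrocyte-like cells, beside 6.98% to 8.48%.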

How the results depend on the processing

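The counts of members past the threshold for exposure, sex and their product stayed at 0 under 253 alternatives (other tools, scalings, filters, clusterings, left-out mice), where the smallest adjusted p was 0.307. For exposure the smallest adjusted p of a member was 0.850 with DESeq2 and 0.547 with limma-voom. Deviations of same-numbered Pb and control mice correlated at r from -0.46 to 0.07, and those of differently numbered mice at -0.35 to 0.49. So few values cannot decide whether the numbers pair mice, and they do not bear on shared dams within a group. The edgeR fit with a replicate block also called 0 members (smallest adjusted p 0.877). Psmc1 in Neuron-like cells ranged from -0.99 to 0.036 with 1 mouse left out, reversing without control female 2. For Microglia-like against Oligodendrocyte-like cells, all 30 alternative counts were within 1.5 times. The 5 largest rises and falls, Psme2, Psmb5 and Psmb6 (13 members) kept direction and call in all 195 alternatives. Psma1, Psma3 and Psmd8 were not among these 13. By library size Psma3 and Psmd8 were not called. With 1 mouse left out, the highest edgeR adjusted p of Psmd8 was 0.122. Against Pericyte-like cells, library-size scaling gave 2 higher and 27 lower, DESeq2 5 lower and no low-count filter 5 lower. Coarser clusters, with 114 Pericyte-like cells, gave 0 lower. With 1 mouse left out, 6 to 9 were higher and 5 to 8 lower, with 5 without control female 1, Pb male 2 or control male 2. Psme2 turned to -0.375 by library size and -0.052 without the mouse block, and ranged from -0.020 to 0.088 with 1 mouse left out, below 0 without control male 2 or control female 2. Psmb6 turned to 0.15 with coarser clusters. Psmd5 missed the threshold in 8 alternatives, and Psmf1 did without Pb female 1 (-0.57). The causes were not tested. The members' median exposure difference ranged from -0.12 to 0.08 in Neuron-like cells, -0.05 to 0.08 in Pericyte-like, -0.02 to 0.07 in Endothelial-like and -0.02 to 0.08 in Microglia-like cells and -0.16 to 0.25 in cluster 6, changing sign in each. It ranged from 0.13 to 0.38 in Astrocyte-like cells, 0.02 to 0.12 in all cells, 0.01 to 0.11 in cluster 0 and 0.03 to 0.12 in Oligodendrocyte-like cells, and 6 of 153 such alternatives moved by more than the spread between mice. Depth limits the classes with few cells: 47098 to 163436 UMIs per mouse in cluster 6, 48525 to 359709 in Astrocyte-like and 65558 to 176137 in Neuron-like cells.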

Other observations

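Within the Oligodendrocyte-like class, the inducible share was 10.0% ± 3.21 in its largest cluster and 7.17% ± 2.67 in the next (n = 8 mice each). The 5 genes most like Psmb5 over the 60 mouse and class profiles were Dctn1 (Spearman's rho 0.783), Rab2a (0.780), Gabarapl2 (0.779), Fkbp4 (0.771) and Psmb6 (0.747), as a description with no test.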
